A study of Homo sapiens with 12 samples.

Results

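The 53 genes described here drive the passage of a cell from G2 through mitosis to cytokinesis. They were taken by symbol from a list of mitotic and G2/M genes, out of 57820 genes in the expression tables. The rule holds names and no measured value, but the list was drawn up with earlier results of these data known. The symbols matched 54 rows, because CKS1B names 2 of them. The row that the gene annotation does not list as protein-coding under that symbol was set aside. It held at most 9.94 units in any BICR31 library and no count in HCC95. RNA was sequenced from 12 libraries of 2 squamous carcinoma cell lines. BICR31 cells, which come from a squamous cell carcinoma of the head and neck, received either a small interfering RNA (siRNA) against the transcription factor KLF5 (siKLF5) or the control siRNA siNC, with 3 libraries each. HCC95, a line from a lung squamous cell carcinoma, carried an empty vector, wild-type KLF5 (KLF5 WT) or the missense mutant KLF5 E419Q, with 2 libraries each. The labels name neither the vector's promoter nor the number of clones, and give no time from treatment to harvest. They leave it unsaid whether replicate libraries stem from separate cultures. All p-values therefore rest on the variation among these libraries alone, and that variation may be technical.

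Mitosis starts when cyclin B and CDK1 are switched on, and it ends when the anaphase-promoting complex with its activator CDC20 has cyclin B and securin degraded. Kinetochores, the spindle checkpoint, the chromosomal passenger complex, motor kinesins and condensin carry out the steps between. Most of these genes are transcribed in late S phase and G2 by the MuvB complex together with MYBL2 and FOXM1, and are repressed in resting cells by the DREAM complex at CHR elements near their start sites. Their summed level is therefore widely read as a measure of proliferation. KLF5 is a zinc finger factor of proliferating basal epithelium that binds GC-rich CACCC and GC boxes.

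KLF5 checked the labels. It measured 2682, 2289 and 2619.6 units of the deposited signal in the siNC libraries and 986, 1008 and 882 units in the siKLF5 libraries, a log2 fold change of -1.40 ± 0.093 (SE), with an adjusted p of 7.27e-09. HCC95 levels are in CPM (counts-per-million). There KLF5 measured 149.9 and 136 CPM with the empty vector, 420.0 and 404 CPM with KLF5 WT and 427 and 442 CPM with KLF5 E419Q. These counts cannot separate vector transcripts from the cell's own. The 2 KLF5 forms differed in KLF5 RNA by a log2 fold change of 0.06 ± 0.062 (SE; adjusted p = 0.683), so their transcript levels were not told apart. Library totals ran from 1922360 to 2296190 estimated counts in BICR31 and from 3074140 to 4643790 expected counts in HCC95. All 53 genes passed the filter on low values in both lines, and their lowest count in any library was 32 in BICR31 and 40 in HCC95. Of 12 squamous epithelial markers, 2 (16.7%) rose and 8 (66.7%) fell with siKLF5, where 15.3% and 10.8% of all genes tested did so. Their summed level was 158700 to 160700 units in siNC against 106700 to 110900 units in siKLF5. In HCC95 the same sum was 20930 to 21980 CPM with the empty vector, 24430 to 25540 CPM with KLF5 WT and 15340 to 16250 CPM with KLF5 E419Q. It was mostly KRT5, and the 12 markers split. With KLF5 WT 8 rose and 3 fell, where 10.8% and 12.1% of all genes did so. With KLF5 E419Q 5 rose and 6 fell, where 10.4% and 10.8% did so. Of 11 immune, endothelial and fibroblast markers found, CD3E was at 0 in all 12 libraries and PTPRC did not exceed 18.2 units or 0.297 CPM. The sum of these 11 was 795 to 976 units in siNC and 1638 to 1855 units in siKLF5, mostly COL1A1, CD14 and VWF. In HCC95 it was 23.3 to 28.4 CPM with the empty vector, 21.6 to 25.3 CPM with KLF5 WT and 42.0 to 47.9 CPM with KLF5 E419Q, where VWF rose (log2 fold change 1.19 ± 0.19 SE, adjusted p = 7.32e-05). The part of these shifts in the results was not tested.

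The mitotic genes were lower after KLF5 silencing and, less uniformly, higher after KLF5 overexpression. The 53 genes together made up 0.927%, 0.922% and 0.923% of the signal in the siNC libraries against 0.740%, 0.751% and 0.747% in the siKLF5 libraries. Every siKLF5 library was below every siNC library. In HCC95 their share of all counts was 0.687% and 0.678% with the empty vector, 0.778% and 0.811% with KLF5 WT, and 0.754% and 0.768% with KLF5 E419Q. All 4 libraries with a KLF5 vector were above both empty-vector libraries, and the KLF5 WT libraries were above the KLF5 E419Q libraries. In bulk RNA, fewer cells in G2 and mitosis and less RNA of these genes per cell cannot be told apart.

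**Figure D1:**
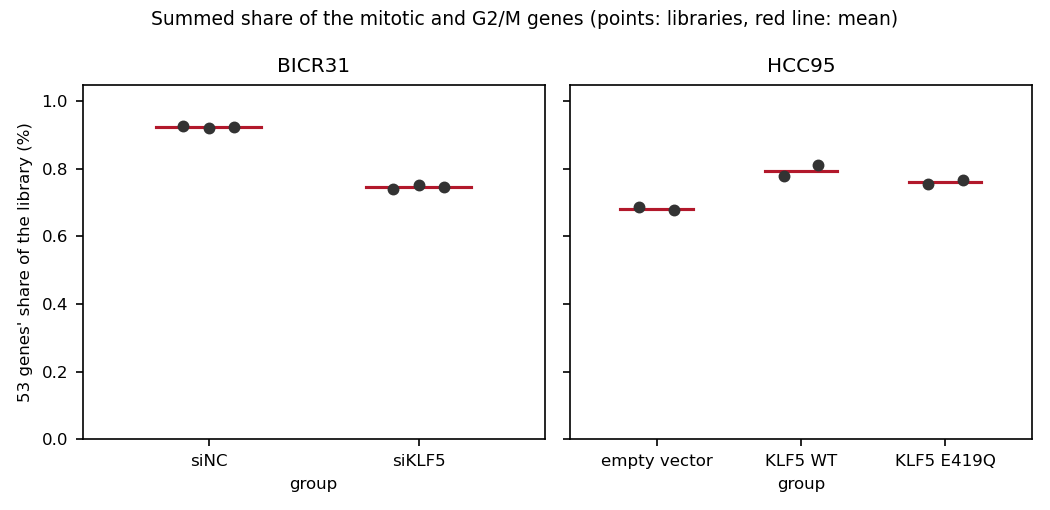
Summed share of the 53 mitotic and G2/M genes in each library, as a percentage of the library's total signal (BICR31, left) or expected counts (HCC95, right). Points are libraries and red lines are group means. The siKLF5 libraries lie between 0.740% and 0.751%, under the siNC libraries at 0.922% to 0.927%, and the empty-vector libraries at 0.678% and 0.687% lie under the 4 libraries with a KLF5 vector.

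Changes are given as log2 fold changes, with p-values adjusted by the Benjamini-Hochberg method over all genes tested, from limma in BICR31 and from edgeR's quasi-likelihood test in HCC95. A gene is said to rise or fall only at an adjusted p under 0.05. In BICR31, 34 of the 53 genes fell with siKLF5 and none rose, where 10.8% of all 15710 genes tested fell and 15.3% rose (limma, adjusted p under 0.05). The median log2 fold change of the 53 genes was -0.29 and that of all genes tested was 0.04. Single changes were moderate: they ran from -0.76 for PTTG1 to 0.02 for NUSAP1, and no gene reached a 2-fold change. In 42 of the 53 genes all 3 siKLF5 libraries were below all 3 siNC libraries, against 17.5% of all genes tested, and in none were they all above, against 22.4%. At an unadjusted p under 0.05 (limma), 41 genes were lower and none was higher, where 5710 of all 15710 genes passed in either direction. With edgeR on estimated counts 42 were called lower and none higher, beside 2163 lower and 2259 higher over all genes. The split of all genes depended on the scaling: the deposited scaling gave 2404 higher and 1693 lower, and quantile normalisation gave 2005 higher and 2129 lower, with 42 mitotic genes lower and none higher under the latter. With KLF5 WT in HCC95, 19 of the 53 rose and 1, MYBL2, fell, where 10.8% of 12933 genes tested rose and 12.1% fell (edgeR). With KLF5 E419Q, 12 rose and 1, again MYBL2, fell, where 10.4% of genes rose and 10.8% fell. These 2 comparisons share the empty-vector libraries, so their calls are not independent.

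**Figure D2:**
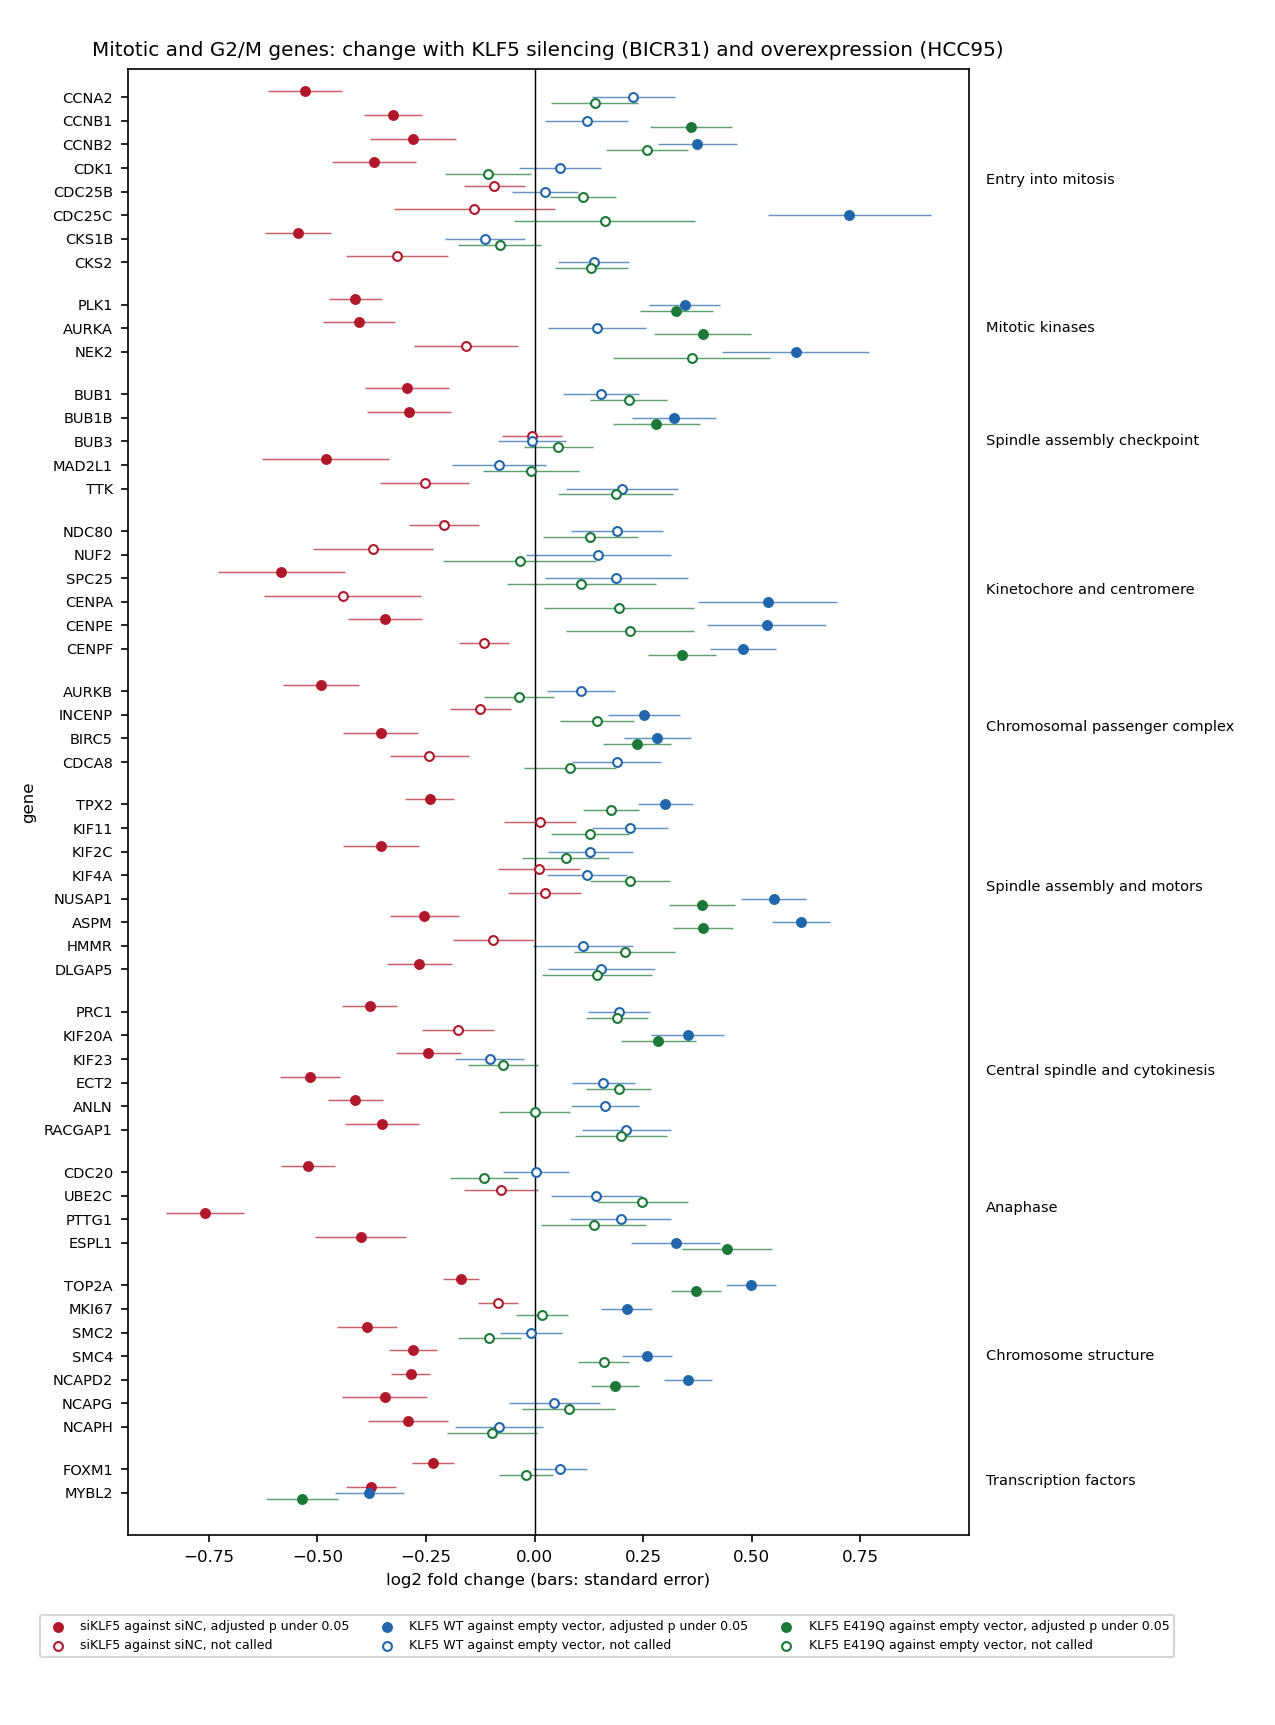
Log2 fold change of each of the 53 genes, grouped by role, for siKLF5 against siNC (red), KLF5 WT against empty vector (blue) and KLF5 E419Q against empty vector (green). Bars are standard errors, and filled points have an adjusted p under 0.05. The red points run from -0.76 (PTTG1) to 0.02 (NUSAP1), and MYBL2 is the only gene with all 3 filled points to the left of 0.

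Read side by side, 11 genes fell with siKLF5 and rose with KLF5 WT, which is 32.4% of the 34 that fell and 57.9% of the 19 that rose. Of all 53 genes 35.8% rose with KLF5 WT and 64.2% fell with siKLF5, so these shares were no higher than those of the whole set. Over the 12432 genes tested in both lines the joint pattern held for 1.75%, against 20.8% of the 53. Of these 11, PLK1, BUB1B, BIRC5, ASPM, ESPL1, TOP2A and NCAPD2 also rose with KLF5 E419Q. The other 4 were CCNB2, CENPE, TPX2 and SMC4. Of the 12 genes that rose with KLF5 E419Q, 9 (75%) fell with siKLF5, beside 64.2% of the whole set. Among them were CCNB1 and AURKA, which were not called with KLF5 WT. Over the 12432 genes this joint pattern held for 1.30%, against 17.0% of the 53. A further 20 genes fell with siKLF5 and were called in no HCC95 comparison, and 11 genes were called in no comparison at all. The shares of all genes with these last 2 patterns were not counted. These lists rest on a threshold in each comparison, and the difference between the lines was not tested.

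Promoter sequence was available for 45 of the 53 genes in RefSeq's table for GRCh38.p14. It is shown for the genes with an entry that fell with siKLF5 and rose with both KLF5 forms, because they moved together, and for MYBL2, which moved apart from them. Each line gives the 150 bases before the start site, 5′ to 3′ on the gene's strand. Capitals mark the letters of a CHR element (TTTGAA, or TTCAAA on the other strand) or of a CCAAT box (CCAAT, or ATTGG on the other strand).
PLK1, chr16:23678739-23678888, plus strand: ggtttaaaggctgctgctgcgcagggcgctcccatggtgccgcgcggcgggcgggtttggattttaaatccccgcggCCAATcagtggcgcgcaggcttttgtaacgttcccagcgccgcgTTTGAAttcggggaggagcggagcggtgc
BUB1B, chr15:40160919-40161068, plus strand: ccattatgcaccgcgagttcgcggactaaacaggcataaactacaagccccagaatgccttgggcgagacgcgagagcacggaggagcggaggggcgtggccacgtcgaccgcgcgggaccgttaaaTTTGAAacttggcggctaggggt
ASPM, chr1:197146670-197146819, minus strand: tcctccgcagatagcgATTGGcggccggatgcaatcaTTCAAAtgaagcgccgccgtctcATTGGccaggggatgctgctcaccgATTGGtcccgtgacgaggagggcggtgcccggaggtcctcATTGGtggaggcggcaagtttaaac
ESPL1, chr12:53268149-53268298, plus strand: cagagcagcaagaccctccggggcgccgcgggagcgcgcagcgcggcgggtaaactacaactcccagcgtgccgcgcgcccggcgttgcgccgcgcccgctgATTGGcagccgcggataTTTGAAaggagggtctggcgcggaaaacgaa
TOP2A, chr17:40417897-40418046, minus strand: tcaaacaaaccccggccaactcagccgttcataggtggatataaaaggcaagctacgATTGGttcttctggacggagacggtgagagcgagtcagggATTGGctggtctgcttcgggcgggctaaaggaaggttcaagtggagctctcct
NCAPD2, chr12:6493952-6494101, plus strand: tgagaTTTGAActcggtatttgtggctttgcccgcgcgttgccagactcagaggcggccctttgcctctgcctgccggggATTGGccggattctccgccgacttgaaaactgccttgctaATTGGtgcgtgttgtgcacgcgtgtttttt
MYBL2, chr20:43666964-43667113, plus strand: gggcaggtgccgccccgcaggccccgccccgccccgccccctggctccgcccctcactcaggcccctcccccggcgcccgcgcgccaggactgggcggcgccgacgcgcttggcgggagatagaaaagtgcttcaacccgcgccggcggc
PLK1, ESPL1 and NCAPD2 held both motifs in this window, and so did ASPM, with 4 CCAAT boxes. BUB1B held a CHR element alone, 17 bases before the start, and TOP2A held 2 CCAAT boxes. In the 250 bases before its start TOP2A held 4 CCAAT boxes and 2 CHR elements, the nearest 145 bases before the start, cut by the edge of the window shown. The MYBL2 window held neither set of letters and was rich in GC boxes (GGGCGG or CCGCCC), of which the 250 bases before its start held 7.

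Over the 250 bases before the start, the CHR letters were present in 57.8% of the 45 promoters and in 13.3% of all 35116 promoters in the table. CCAAT or ATTGG was present in 73.3% against 32.0% of all promoters. Both motifs together were present in 48.9% against 4.69%. The CACCC box (CACCC or GGGTG) was present in 46.7% against 54.7%, and the GC box in 71.1% against 42.6%. Motifs were searched on both strands, and matches of different motifs could overlap. Within the 100 bases nearest the start the order was kept for the CHR letters (42.2% against 4.61%) and for CCAAT (62.2% against 18.1%). It was also kept for CACCC (13.3% against 28.95%) and for the GC box (44.4% against 31.3%). The medians of genes with and without the CHR letters were close: the median log2 fold change with siKLF5 was -0.29 for the 26 genes with them and -0.33 for the 19 without, and with KLF5 WT it was 0.19 and 0.15. A match describes the letters in this window and was not tested as a binding site.

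**Figure D3:**
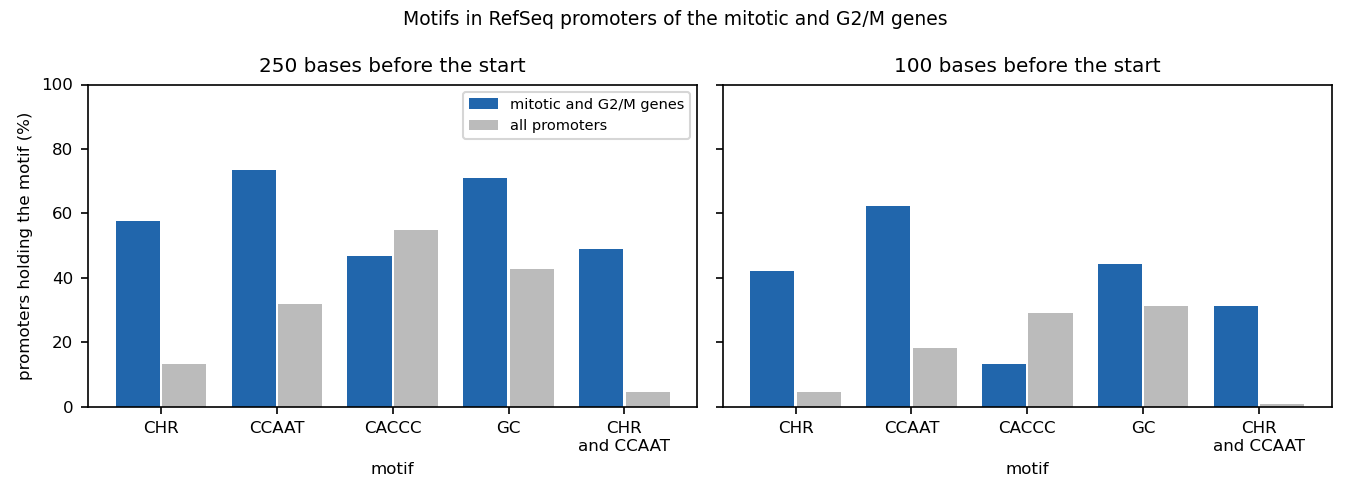
Percentage of RefSeq promoters that hold each motif, for the 45 mitotic and G2/M genes with a promoter entry (blue) and for all 35116 promoters (grey), in the 250 bases (left) and the 100 bases (right) before the start site. The CHR, CCAAT and GC bars are taller for the mitotic genes in both windows (57.8% against 13.3% for the CHR letters on the left), and the CACCC bar is shorter (46.7% against 54.7% on the left).

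Among the genes that bring about entry into mitosis, 5 of 8 fell with siKLF5. Levels are given for libraries A, B and C of each group, in the units of the deposited signal. CCNA2 encodes cyclin A2, which pairs with CDK2 and CDK1 in S phase and G2. It measured 1736, 1678 and 1824 units in siNC and 1257, 1199.9 and 1173 units in siKLF5. The groups were well apart, with a log2 fold change of -0.53 ± 0.086 (SE), with an adjusted p of 0.000182. CCNB1 (ENSG00000134057.10), cyclin B1, measured 4264, 4213 and 4056 units in siNC and 3147, 3225 and 3638 units in siKLF5, a log2 fold change of -0.33 ± 0.067 (SE), with an adjusted p of 0.00139. The highest siKLF5 library was below the lowest siNC library. CDK1 (ENSG00000170312.11), the kinase that cyclin B activates, measured 1609, 1459 and 1481 units in siNC and 1208, 1267 and 1055 units in siKLF5, a log2 fold change of -0.37 ± 0.097 (SE), with an adjusted p of 0.00885. Its call was lost without siKLF5 library C (adjusted p = 0.0555). CKS1B, a small subunit that docks CDKs to their substrates, measured 3163, 2972 and 2926 units in siNC and 2029, 2258 and 1937 units in siKLF5. This was the deepest fall of the role, a change of -0.54 ± 0.076 (SE), with an adjusted p of 4.18e-05. CCNB2, cyclin B2, fell by 0.28 on the log2 scale with an adjusted p of 0.0464, and lost its call when siNC B, siNC C, siKLF5 B or siKLF5 C was left out (adjusted p from 0.0669 to 0.203). CKS2 had a log2 fold change of -0.32 ± 0.12 (SE; adjusted p = 0.05705), and the CDK1-activating phosphatases CDC25B (log2 fold change -0.09 ± 0.070 SE, adjusted p = 0.373) and CDC25C (log2 fold change -0.14 ± 0.19 SE, adjusted p = 0.637) were not called.

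Of the 3 mitotic kinases, 2 fell. PLK1 (ENSG00000166851.10) acts in mitotic entry, centrosome maturation and cytokinesis, and measured 4336, 4578 and 4363 units in siNC and 3196, 3433 and 3346 units in siKLF5. All siKLF5 libraries were lower, with a log2 fold change of -0.41 ± 0.060 (SE), with an adjusted p of 6.5e-05. AURKA (ENSG00000087586.13), Aurora A, builds the spindle poles and measured 3736, 3392 and 3144 units in siNC and 2399, 2483 and 2882 units in siKLF5. The groups did not overlap, with a log2 fold change of -0.40 ± 0.082 (SE), with an adjusted p of 0.00136. NEK2, a kinase of centrosome separation, had a log2 fold change of -0.16 ± 0.12 (SE; adjusted p = 0.371) and its groups overlapped.

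In the spindle assembly checkpoint, which holds anaphase until every kinetochore is attached, 3 of 5 genes fell. MAD2L1, whose product sequesters CDC20, measured 1082, 775 and 1066 units in siNC and 756, 575 and 756 units in siKLF5. Library siNC B lay closest to the siKLF5 group, and the log2 fold change was -0.48 ± 0.15 (SE), with an adjusted p of 0.0221. BUB1, the checkpoint's scaffold kinase, measured 1591, 1568 and 1518 units in siNC and 1117, 1350.0 and 1362 units in siKLF5, a log2 fold change of -0.29 ± 0.096 (SE), with an adjusted p of 0.0318. BUB1B, which encodes BUBR1 of the mitotic checkpoint complex, measured 1755, 1441 and 1581 units in siNC and 1199.7, 1362 and 1339 units in siKLF5, a change of -0.29 ± 0.097 (SE), with an adjusted p of 0.0352. All 3 calls were sensitive to single libraries. MAD2L1 lost its call without siNC A, siNC C or siKLF5 B (adjusted p up to 0.125). BUB1 lost it without siKLF5 A or any siNC library (up to 0.158), and BUB1B without any library but siNC B (up to 0.155). TTK, the kinase MPS1, had a log2 fold change of -0.25 ± 0.10 (SE; adjusted p = 0.0796) with no overlap of the groups. BUB3 was at 2564, 2526 and 2547 units in siNC and 2514, 2450.0 and 2646 units in siKLF5, a log2 fold change of -0.01 ± 0.068 (SE; adjusted p = 0.964).

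At the kinetochore and centromere, 2 of 6 genes fell. SPC25, a subunit of the NDC80 complex that grips microtubules, measured 709, 565 and 677 units in siNC and 468, 383 and 449 units in siKLF5. Its fall was the second deepest of all 53, a log2 fold change of -0.58 ± 0.15 (SE), with an adjusted p of 0.006605. CENPE, a kinesin that carries chromosomes to the metaphase plate, measured 1627, 1568 and 1554 units in siNC and 1274, 1208 and 1259.8 units in siKLF5, a log2 fold change of -0.34 ± 0.085 (SE), with an adjusted p of 0.00609. The other 2 NDC80 complex genes had non-overlapping groups but were not called, with a log2 fold change of -0.37 ± 0.14 (SE; adjusted p = 0.0576) for NUF2 and -0.21 ± 0.081 (SE; adjusted p = 0.0685) for NDC80. CENPA, the histone that marks the centromere, had a log2 fold change of -0.44 ± 0.18 (SE; adjusted p = 0.0853), with overlap. CENPF, an outer kinetochore protein, had a log2 fold change of -0.12 ± 0.058 (SE; adjusted p = 0.159).

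The chromosomal passenger complex corrects wrong kinetochore attachments, and 2 of its 4 genes fell. AURKB, its kinase Aurora B, measured 1709, 1961 and 1825 units in siNC and 1372, 1233 and 1299 units in siKLF5, a change of -0.49 ± 0.088 (SE), with an adjusted p of 0.000467. BIRC5, which encodes survivin, measured 1891, 1888 and 1969 units in siNC and 1397, 1450.0 and 1661 units in siKLF5, a log2 fold change of -0.35 ± 0.087 (SE), with an adjusted p of 0.00563. In both genes every siKLF5 library was below every siNC library. The same non-overlap held for the scaffold INCENP (log2 fold change -0.12 ± 0.071 SE, adjusted p = 0.221) and for CDCA8, borealin (log2 fold change -0.24 ± 0.091 SE, adjusted p = 0.0612), which were not called.

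Of the spindle assembly genes and motors, 4 of 8 fell. TPX2, the activator of Aurora A on spindle microtubules, measured 7109, 6693 and 6965 units in siNC and 5628, 5642 and 6315 units in siKLF5, a log2 fold change of -0.24 ± 0.056 (SE), with an adjusted p of 0.00399. KIF2C, a kinesin that depolymerises microtubules at the centromere, measured 2427, 2599 and 2240.2 units in siNC and 1832, 2125 and 1740.2 units in siKLF5, a change of -0.35 ± 0.088 (SE), with an adjusted p of 0.00633. DLGAP5, which stabilises kinetochore fibres, measured 2600.0, 2599 and 2719 units in siNC and 2161, 2383 and 2055 units in siKLF5, a log2 fold change of -0.27 ± 0.075 (SE), with an adjusted p of 0.0144. The groups were apart in each of these genes. ASPM, a spindle pole protein, measured 2227, 2508 and 2584 units in siNC and 2005, 2175 and 1953 units in siKLF5, a log2 fold change of -0.25 ± 0.080 (SE), with an adjusted p of 0.0267. Single libraries carried some of these calls. KIF2C lost its call without siKLF5 C (adjusted p = 0.05003), DLGAP5 without siNC C, siKLF5 A or siKLF5 C (up to 0.07695), and ASPM without siNC B, siNC C, siKLF5 A or siKLF5 C (up to 0.118). The other 4 genes were not called. They were the bipolar spindle motor KIF11 (log2 fold change 0.01 ± 0.082 SE, adjusted p = 0.935), the chromokinesin KIF4A (log2 fold change 0.01 ± 0.094 SE, adjusted p = 0.953), the microtubule bundler NUSAP1 (log2 fold change 0.02 ± 0.084 SE, adjusted p = 0.876) and HMMR (log2 fold change -0.10 ± 0.093 SE, adjusted p = 0.502). NUSAP1 measured 1536, 1723 and 1752 units in siNC and 1659.8, 1725 and 1701 units in siKLF5, and its groups overlapped.

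Of the genes of the central spindle and cytokinesis, 5 of 6 fell. ECT2, the RhoA activator that positions the cleavage furrow, measured 3600.0, 3209.8 and 3396 units in siNC and 2366, 2450.0 and 2307 units in siKLF5. No siKLF5 library came near the siNC group, and the log2 fold change was -0.52 ± 0.069 (SE), with an adjusted p of 2.56e-05. ANLN, anillin of the contractile ring, measured 5155, 5444 and 4986 units in siNC and 3632, 4158 and 3929 units in siKLF5, a change of -0.41 ± 0.063 (SE), with an adjusted p of 0.000109. PRC1, which cross-links the antiparallel microtubules of the midzone, measured 4264, 4704 and 4237 units in siNC and 3361, 3275 and 3504 units in siKLF5, a log2 fold change of -0.38 ± 0.063 (SE), with an adjusted p of 0.0002403. The centralspindlin pair fell less: RACGAP1 had a log2 fold change of -0.35 ± 0.085 (SE; adjusted p = 0.00538) and KIF23 had a log2 fold change of -0.24 ± 0.075 (SE; adjusted p = 0.0225). KIF23 lost its call without siNC A, siNC B, siKLF5 A or siKLF5 C (adjusted p up to 0.1096). KIF20A, a kinesin that brings Aurora B to the midzone, had a log2 fold change of -0.18 ± 0.083 (SE; adjusted p = 0.135) and overlapping groups.

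At the metaphase to anaphase transition 3 of 4 genes fell, among them the deepest fall of the 53. PTTG1, securin, which inhibits separase, measured 1600.0, 1687 and 1599 units in siNC and 920.3, 975 and 992 units in siKLF5. The groups were far apart, with a log2 fold change of -0.76 ± 0.090 (SE), with an adjusted p of 7.72e-06. CDC20, the activator of the anaphase-promoting complex, measured 4473, 4651 and 4499 units in siNC and 3007, 3167 and 3323 units in siKLF5, a log2 fold change of -0.52 ± 0.061 (SE), with an adjusted p of 6.76e-06. ESPL1, separase, which opens cohesin rings, measured 1164, 1268 and 1048 units in siNC and 879, 867 and 882 units in siKLF5, a change of -0.40 ± 0.10 (SE), with an adjusted p of 0.008696. Its call was lost without siNC B (adjusted p = 0.0502). UBE2C, the ubiquitin-conjugating enzyme of the same complex, was not called, with a log2 fold change of -0.08 ± 0.086 (SE; adjusted p = 0.563) and overlapping groups.

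Among the genes of chromosome structure, 6 of 7 fell, including all 5 condensin I genes. SMC2 and SMC4 are the ATPase arms of condensin. SMC2 measured 2918, 2936 and 2755 units in siNC and 2227, 2242 and 2118 units in siKLF5, a log2 fold change of -0.39 ± 0.069 (SE), with an adjusted p of 0.000466. SMC4 measured 5364, 5793 and 5329.6 units in siNC and 4462, 4533 and 4572 units in siKLF5, a log2 fold change of -0.28 ± 0.056 (SE), with an adjusted p of 0.00111. NCAPD2, a condensin I regulatory subunit, measured 8586, 8539.7 and 8411 units in siNC and 6996, 6951 and 7005 units in siKLF5, a change of -0.29 ± 0.045 (SE), with an adjusted p of 0.000151. The replicates of these genes were tight and the groups lay well apart. The remaining subunits NCAPG (log2 fold change -0.35 ± 0.097 SE, adjusted p = 0.0136) and NCAPH (log2 fold change -0.29 ± 0.092 SE, adjusted p = 0.0267) were less secure. NCAPG lost its call without siKLF5 B (adjusted p = 0.0734), and NCAPH without siNC A, siNC C, siKLF5 B or siKLF5 C (up to 0.103). TOP2A (ENSG00000131747.10), topoisomerase II alpha, untangles sister chromatids and measured 18382, 18092 and 19729 units in siNC and 16968, 16550.0 and 16433 units in siKLF5. The groups did not overlap, and the log2 fold change was -0.17 ± 0.041 (SE), with an adjusted p of 0.00473. MKI67 (ENSG00000148773.8), which encodes the proliferation antigen Ki-67, measured 8764, 8389 and 8816 units in siNC and 8077, 8417 and 8000.0 units in siKLF5. Its groups overlapped, and it was not called, with a log2 fold change of -0.08 ± 0.047 (SE; adjusted p = 0.208).

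Both transcription factors of the set fell in BICR31. FOXM1 (ENSG00000111206.8), which drives G2/M transcription with MuvB, measured 7091, 7396 and 7316 units in siNC and 6326, 6049 and 6161 units in siKLF5, a log2 fold change of -0.23 ± 0.049 (SE), with an adjusted p of 0.00168. MYBL2 (ENSG00000101057.11), or B-Myb, measured 5836, 6082 and 6043 units in siNC and 4388, 4558 and 4898 units in siKLF5, a log2 fold change of -0.38 ± 0.057 (SE), with an adjusted p of 8.98e-05. Neither gene's groups overlapped.

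**Figure D4:**
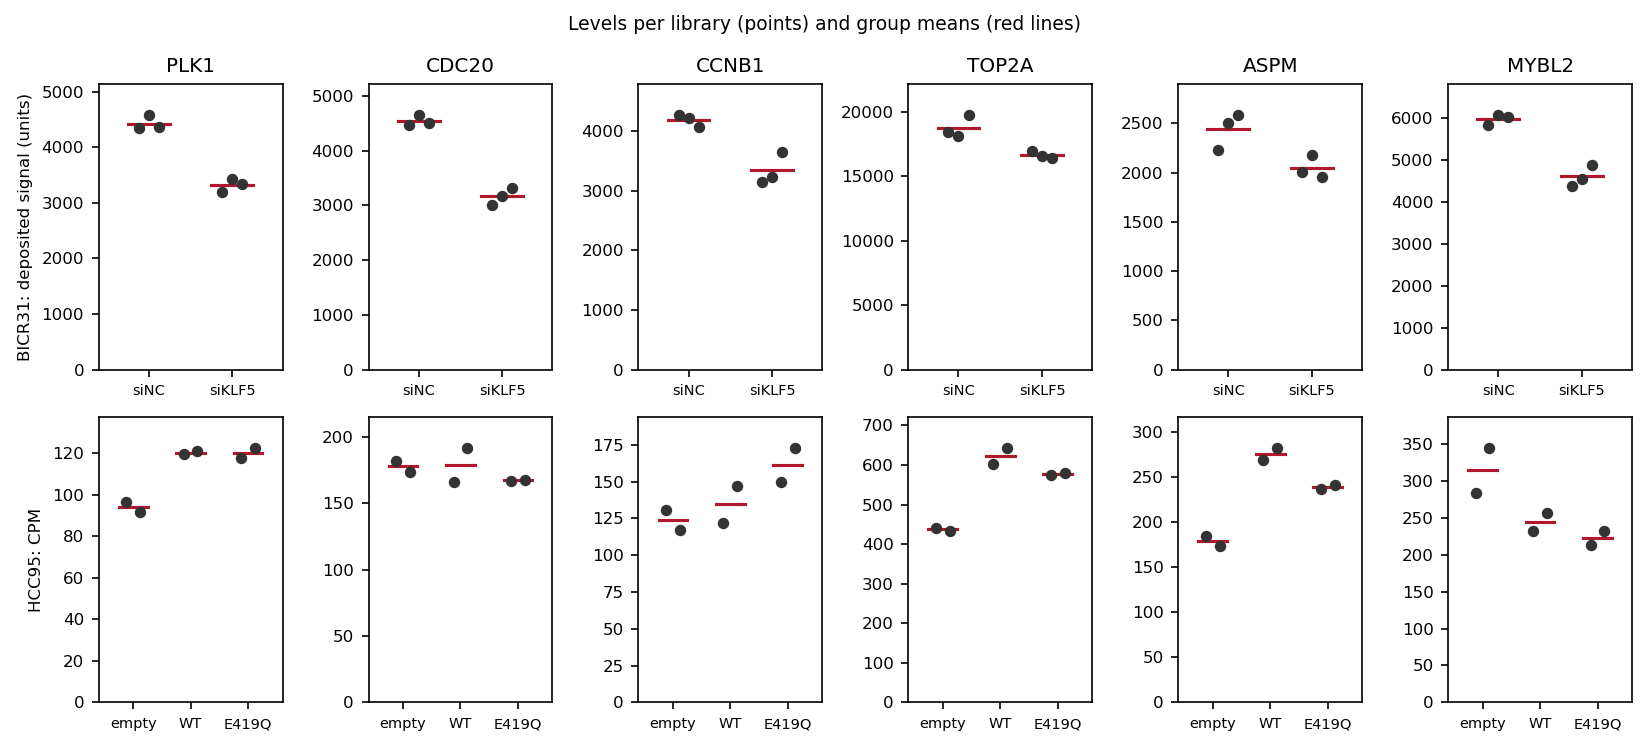
Level per library of PLK1, CDC20, CCNB1, TOP2A, ASPM and MYBL2, as units of the deposited signal in BICR31 (top) and CPM in HCC95 (bottom); points are libraries and red lines are group means. MYBL2 is lower with siKLF5 and also lower with KLF5 WT and KLF5 E419Q, while PLK1, TOP2A and ASPM are lower with siKLF5 and higher with both KLF5 forms.

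With wild-type KLF5 in HCC95, the 19 genes that rose did so by moderate amounts. The median log2 fold change of the 53 was 0.19, against 0.00 for all genes tested, and no gene reached a 2-fold change. Both KLF5 WT libraries were above both empty-vector libraries in 34 genes and below them in 3, where 31.9% and 29.1% of all genes did so. With 2 libraries a group this ordering is common. At an unadjusted p under 0.05 (edgeR), 23 genes were higher and 1 was lower, where 4499 of all 12933 genes passed in either direction. DESeq2 called 7 of the 53 higher, and over all genes it called 511 higher where edgeR called 1394. Leaving out any 1 library of the 2 groups left fewer of the 53 higher, and fewer of all genes tested as well. The calls kept under every alternative tried were 7: CENPF, TPX2, NUSAP1, ASPM, TOP2A, SMC4 and NCAPD2.

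At mitotic entry, 2 of 8 genes rose with KLF5 WT. Where a pair of empty-vector values stands before a pair of KLF5 WT values, each pair gives libraries A and B. CDC25C had the largest fold of the set. It measured 11.6 and 12.3 CPM with the empty vector and 18.8 and 21.04 CPM with KLF5 WT, a log2 fold change of 0.72 ± 0.19 (SE), with an adjusted p of 0.00709. This low-level gene lost its call without KLF5 WT library B (adjusted p = 0.0816). CCNB2 measured 71.5 and 71.5 CPM with the empty vector and 91.6 and 95.2 CPM with KLF5 WT, a change of 0.37 ± 0.090 (SE), with an adjusted p of 0.00431. CCNB1 measured 131 and 117 CPM and 122 and 147 CPM, and its groups overlapped (log2 fold change 0.12 ± 0.095 SE, adjusted p = 0.3999). CDK1 measured 96.4 and 101 CPM and 92.4 and 114 CPM, also with overlap (log2 fold change 0.06 ± 0.095 SE, adjusted p = 0.7099). Of the kinases, PLK1 measured 96.7 and 91.7 CPM with the empty vector and 119.7 and 121 CPM with KLF5 WT, a log2 fold change of 0.35 ± 0.082 (SE), with an adjusted p of 0.00393. NEK2 measured 15.3 and 22.6 CPM and 29.9 and 29.6 CPM, a log2 fold change of 0.60 ± 0.17 (SE), with an adjusted p of 0.0128. Its call was lost without empty-vector library A, KLF5 WT A or KLF5 WT B (adjusted p up to 0.133). AURKA measured 81.9 and 61.6 CPM and 77.6 and 79.9 CPM, and the wide spread of the empty-vector libraries left a log2 fold change of 0.14 ± 0.11 (SE; adjusted p = 0.394).

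In the checkpoint, only BUB1B of 5 genes passed, with 63.1 and 63.96 CPM in the empty-vector libraries and 79.6 and 80.3 CPM in the KLF5 WT libraries, a change of 0.32 ± 0.097 (SE), with an adjusted p of 0.0196. The call did not survive the removal of any library of the 2 groups (adjusted p from 0.0665 to 0.1003). At the kinetochore and centromere 3 of 6 rose. CENPF measured 139 and 125 CPM with the empty vector and 186 and 184 CPM with KLF5 WT, a log2 fold change of 0.48 ± 0.076 (SE), with an adjusted p of 6.88e-05. The KLF5 WT libraries were close to each other and far from the empty-vector libraries. CENPE measured 41.1 and 32.3 CPM and 45.8 and 59.4 CPM, a log2 fold change of 0.53 ± 0.14 (SE), with an adjusted p of 0.00665. CENPA measured 17.1 and 20.03 CPM and 24.8 and 29.8 CPM, a change of 0.54 ± 0.16 (SE), with an adjusted p of 0.0179. Both were more variable: CENPE lost its call without empty-vector B or KLF5 WT B (adjusted p up to 0.202), and CENPA without empty-vector A or KLF5 WT B (up to 0.218). In the chromosomal passenger complex 2 of 4 rose. BIRC5 measured 112 and 115 CPM and 140.1 and 138 CPM, a log2 fold change of 0.28 ± 0.077 (SE), with an adjusted p of 0.0101. INCENP measured 111 and 99.9 CPM and 128 and 124 CPM, a log2 fold change of 0.25 ± 0.083 (SE), with an adjusted p of 0.0301. BIRC5 lost its call without KLF5 WT A or KLF5 WT B (up to 0.0754), and INCENP without empty-vector B, KLF5 WT A or KLF5 WT B (up to 0.262).

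Of the spindle genes 3 of 8 rose. ASPM measured 185 and 174 CPM with the empty vector and 269 and 283 CPM with KLF5 WT, a change of 0.61 ± 0.067 (SE), with an adjusted p of 6.1e-07. NUSAP1, which was not called in BICR31, measured 115 and 119.7 CPM and 177 and 171 CPM, a log2 fold change of 0.55 ± 0.075 (SE), with an adjusted p of 1.11e-05. TPX2 measured 256 and 259 CPM and 323 and 318 CPM, a log2 fold change of 0.30 ± 0.063 (SE), with an adjusted p of 0.001303. All 3 kept their calls under every alternative, and the other 5 spindle genes were not called. KIF20A was the only cytokinesis gene of 6 to rise, from 101 and 92.2 CPM to 122 and 125 CPM, a change of 0.35 ± 0.084 (SE), with an adjusted p of 0.00393. Its call was lost without empty-vector B (adjusted p = 0.0609). ESPL1 was the only gene of 4 to rise at anaphase, with 51.8 and 52.97 CPM and 62.6 and 69.6 CPM, a log2 fold change of 0.33 ± 0.10 (SE), with an adjusted p of 0.0247, and it lost its call without empty-vector A, empty-vector B or KLF5 WT B (up to 0.231). CDC20 measured 182 and 174 CPM and 166 and 192 CPM, a log2 fold change of 0.00 ± 0.076 (SE; adjusted p = 0.985), and PTTG1 had a log2 fold change of 0.20 ± 0.12 (SE; adjusted p = 0.242).

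Of the chromosome structure genes 4 of 7 rose. TOP2A measured 441 and 434 CPM with the empty vector and 601 and 643 CPM with KLF5 WT, a log2 fold change of 0.50 ± 0.056 (SE), with an adjusted p of 9.85e-07. NCAPD2 measured 528 and 500.5 CPM and 668 and 654 CPM, a change of 0.35 ± 0.055 (SE), with an adjusted p of 6.2e-05. SMC4 measured 401 and 384 CPM and 469 and 476 CPM, a log2 fold change of 0.26 ± 0.057 (SE), with an adjusted p of 0.00213. In these genes the groups were far apart beside the spread within them. MKI67 measured 435 and 434 CPM and 517 and 498 CPM, a log2 fold change of 0.21 ± 0.058 (SE), with an adjusted p of 0.0109, and lost its call without KLF5 WT A (adjusted p = 0.116). The condensin genes SMC2 (log2 fold change -0.01 ± 0.071 SE, adjusted p = 0.954), NCAPG (log2 fold change 0.05 ± 0.11 SE, adjusted p = 0.802) and NCAPH (log2 fold change -0.08 ± 0.10 SE, adjusted p = 0.611) were not called, although each fell with siKLF5.

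MYBL2 was the only gene of the 53 that fell with a KLF5 form. It measured 284 and 345 CPM with the empty vector, 233 and 256 CPM with KLF5 WT and 213 and 232 CPM with KLF5 E419Q. All 4 libraries with a KLF5 vector were below both empty-vector libraries. The log2 fold change was -0.38 ± 0.080 (SE), with an adjusted p of 0.00133 with KLF5 WT, and -0.54 ± 0.082 (SE), with an adjusted p of 4.53e-05 with KLF5 E419Q. Empty-vector library B was the highest, and without it the KLF5 WT call was lost (adjusted p = 0.0582), which leaves 0 genes lower in that comparison, while the KLF5 E419Q call was kept without each library in turn. FOXM1 measured 311 and 336 CPM, 336 and 343 CPM and 322 and 329.6 CPM in the same order, and was not called with KLF5 WT (log2 fold change 0.06 ± 0.062 SE, adjusted p = 0.552) or KLF5 E419Q (log2 fold change -0.02 ± 0.063 SE, adjusted p = 0.868).

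With KLF5 E419Q, 12 of the 53 genes rose over the empty vector, and the set had a median log2 fold change of 0.16. Both KLF5 E419Q libraries were above both empty-vector libraries in 35 genes and below them in 4, where 32.4% and 26.4% of all genes did so, 58.8% in all. At an unadjusted p under 0.05 (edgeR), 20 genes were higher and 1 was lower, where 4270 of all 12933 genes passed in either direction. DESeq2 called 4 higher, and scaling by library totals called 18. Over all genes these called 573 and 1551 higher, against 1340 in the main fit. Without any 1 library of the 2 groups, fewer of the 53 were called higher, and so were fewer of all genes tested. NUSAP1, ASPM and TOP2A stayed higher under every alternative tried. ASPM measured 236 and 241 CPM with KLF5 E419Q, a change of 0.39 ± 0.069 (SE), with an adjusted p of 0.000263. NUSAP1 measured 154 and 160.2 CPM, a log2 fold change of 0.39 ± 0.077 (SE), with an adjusted p of 0.000827. TOP2A measured 576 and 579 CPM, a log2 fold change of 0.37 ± 0.057 (SE), with an adjusted p of 4.8e-05. These libraries stood between those of the empty vector and those of KLF5 WT in each of the 3 genes.

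The largest rise with KLF5 E419Q was in ESPL1, at 71.2 and 74.3 CPM, a change of 0.44 ± 0.10 (SE), with an adjusted p of 0.00337, and the call was lost without KLF5 E419Q B (adjusted p = 0.0507). AURKA, at 90.8 and 98.1 CPM, rose by a log2 fold change of 0.39 ± 0.11 (SE), with an adjusted p of 0.0155. CCNB1, at 149.6 and 173 CPM, rose by a log2 fold change of 0.36 ± 0.094 (SE), with an adjusted p of 0.00775. Neither had been called with KLF5 WT, and both rest on single libraries: AURKA lost its call without empty-vector B, KLF5 E419Q A or KLF5 E419Q B (up to 0.3502), and CCNB1 without empty-vector B or KLF5 E419Q B (up to 0.198). PLK1 measured 118 and 123 CPM, a log2 fold change of 0.33 ± 0.084 (SE), with an adjusted p of 0.00715, and lost its call without empty-vector B or KLF5 E419Q B (up to 0.0877). CENPF measured 173 and 166 CPM, a log2 fold change of 0.34 ± 0.078 (SE), with an adjusted p of 0.00285, and lost its call without empty-vector B (adjusted p = 0.0605). KIF20A measured 115 and 124 CPM (log2 fold change 0.28 ± 0.087 SE, adjusted p = 0.02099). NCAPD2 measured 589.8 and 603 CPM (log2 fold change 0.19 ± 0.056 SE, adjusted p = 0.02001). BIRC5 measured 135 and 138 CPM (log2 fold change 0.24 ± 0.079 SE, adjusted p = 0.03596). BUB1B measured 73.5 and 83.8 CPM (log2 fold change 0.28 ± 0.10 SE, adjusted p = 0.0498). These 4 calls rested on single libraries. KIF20A and NCAPD2 lost their calls without empty-vector B, KLF5 E419Q A or KLF5 E419Q B (up to 0.202 and 0.145), and BIRC5 and BUB1B without any library of the 2 groups (up to 0.184 and 0.3998). MKI67, at 432 and 466 CPM, was not called (log2 fold change 0.02 ± 0.059 SE, adjusted p = 0.875), and neither was CDK1, at 91.7 and 95.1 CPM (log2 fold change -0.11 ± 0.099 SE, adjusted p = 0.489).

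The 2 KLF5 forms were also compared directly. With KLF5 E419Q, 2 of the 53 genes were lower than with KLF5 WT and none was higher, where 3.59% of all genes were lower and 4.41% higher (edgeR). The genes were ASPM (log2 fold change -0.23 ± 0.067 SE, adjusted p = 0.03699) and MKI67 (log2 fold change -0.19 ± 0.059 SE, adjusted p = 0.0451). Both calls were lost when any library of the 2 groups was left out, with adjusted p between 0.0854 and 0.272 for ASPM and between 0.0602 and 0.377 for MKI67, and DESeq2 called none of the 53 in either direction. At an unadjusted p under 0.05 (edgeR), 8 genes were lower and 2 were higher. Of all 12933 genes, 2460 passed in either direction, so the share of the 53 was no higher. The KLF5 E419Q libraries were below both KLF5 WT libraries in 21 genes and above them in 8, where 21.9% and 27.1% of all genes did so, 49.0% in all. The largest difference was in CDC25C, a log2 fold change of -0.56 ± 0.19 (SE; adjusted p = 0.07999), which was not called. Its fold was 0.677, with a 95% interval, not adjusted for the number of genes, of 0.514 to 0.892.

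For most genes the interval shows how large a difference these libraries could have missed. PLK1 stood at 0.987 times its KLF5 WT level with KLF5 E419Q (95% interval 0.877 to 1.11). MYBL2 stood at 0.898 times (0.795 to 1.01), and FOXM1 at 0.948 times (0.865 to 1.04). TOP2A stood at 0.916 times (0.845 to 0.993; adjusted p = 0.208). CDK1 stood at 0.891 times (0.772 to 1.03). AURKA and CCNB1 leaned the other way, at 1.18 times (1.01 to 1.39; adjusted p = 0.228) and 1.18 times (1.03 to 1.35; adjusted p = 0.141). None of these 7 was called, and the intervals do not show that the 2 forms act alike.

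Levels between genes were compared only in HCC95, per transcript length, as TPM (transcripts-per-million). The median over the 6 libraries ran from 8.28 TPM for CENPE to 406 TPM for CKS2, with 61.0 TPM as the middle gene's value. After CKS2 came AURKB at 199 TPM, UBE2C at 195 TPM and the paralogue CKS1B at 190.4 TPM. CDC25C, at 12.1 TPM, was next to last. The gene with the highest level thus was not called in any comparison, although CKS2 was close to the threshold with siKLF5 (limma, adjusted p = 0.05705). Some alternatives called it lower, such as edgeR on estimated counts (adjusted p = 0.0194), and others did not. The largest fold with KLF5 WT was in a gene of the lowest levels.

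Related gene lists show how far the change extended along the cell cycle. They were chosen with the same knowledge. Of 69 other mitotic genes tested, 41 (59.4%) fell with siKLF5 and 2 (2.90%) rose, where 10.8% of all genes fell and 15.3% rose. Among them were DEPDC1 (log2 fold change -1.21 ± 0.13 SE, adjusted p = 3.07e-06), the centromere gene CENPN (log2 fold change -0.70 ± 0.084 SE, adjusted p = 9.14e-06) and the tubulin gene TUBB4B (log2 fold change -0.37 ± 0.039 SE, adjusted p = 1.84e-06). With KLF5 WT 15 (21.7%) rose and 5 (7.25%) fell, where 10.8% of all genes rose and 12.1% fell, led by the cytokinesis kinase CIT (log2 fold change 0.63 ± 0.088 SE, adjusted p = 1.47e-05), and with KLF5 E419Q 9 (13.0%) rose and 2 (2.90%) fell, where 10.4% and 10.8% of all genes did so. The G1/S genes, which make DNA and its precursors, also fell with siKLF5: 34 of 39 were lower and none was higher, with a median log2 fold change of -0.58. They included the helicase subunits MCM2 (log2 fold change -0.79 ± 0.058 SE, adjusted p = 2.63e-08) and MCM4 (log2 fold change -0.75 ± 0.064 SE, adjusted p = 1.49e-07) and thymidylate synthase TYMS (log2 fold change -0.66 ± 0.059 SE, adjusted p = 2.73e-07). With KLF5 WT, 3 of these 39 rose and 2 fell, and KLF5 E419Q gave the same counts, which is 7.69% and 5.13% of the list, under the shares of all genes in each direction. The LIG1 ligase rose with KLF5 WT (log2 fold change 0.61 ± 0.11 SE, adjusted p = 0.000196), and the replication factor CDC45 fell (log2 fold change -0.48 ± 0.13 SE, adjusted p = 0.00983).

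Of the 16 core genes of the anaphase-promoting complex, 6 (37.5%) fell with siKLF5, where 10.8% of all genes did, and none rose, with ANAPC1 at a log2 fold change of -0.33 ± 0.095 (SE; adjusted p = 0.01604). With each KLF5 form 1 rose, ANAPC16, which is 6.25% of the list against 10.8% and 10.4% of all genes. The 10 cohesin genes split, with 3 higher and 3 lower with siKLF5 (30% each), where 15.3% of all genes rose and 10.8% fell. STAG2 rose (log2 fold change 0.35 ± 0.085 SE, adjusted p = 0.00549) and SMC3 fell (log2 fold change -0.27 ± 0.076 SE, adjusted p = 0.0159). No cohesin gene was called with either KLF5 form. At an unadjusted p under 0.05 (edgeR) 0 cohesin genes differed with KLF5 WT and 2 with KLF5 E419Q. Over all 12933 genes 4499 and 4270 did so. Among 17 genes of the DREAM and MuvB complexes and the E2F and RB families, 7 (41.2%) fell and 2 (11.8%) rose with siKLF5. Of all genes 10.8% fell and 15.3% rose, so the rises were under that share. The E2F partner TFDP1 (log2 fold change -0.57 ± 0.061 SE, adjusted p = 2.37e-06) and E2F1 (log2 fold change -0.43 ± 0.092 SE, adjusted p = 0.00186) fell, and E2F3 rose (log2 fold change 0.65 ± 0.12 SE, adjusted p = 0.000826). With KLF5 WT the pocket protein gene RBL2 rose (log2 fold change 0.67 ± 0.11 SE, adjusted p = 6.59e-05) and E2F2 fell (log2 fold change -0.67 ± 0.13 SE, adjusted p = 0.000856), among 2 higher and 2 lower. At 11.8% in each direction, these counts are near the 10.8% and 12.1% of all genes.

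Of the CDK inhibitors, 4 of 6 tested (66.7%) were higher with siKLF5 and none was lower, where 15.3% of all genes rose. CDKN1A encodes p21, which acts upstream of the DREAM complex. It measured 1719 ± 163 units in siNC and 4756 ± 65.7 units in siKLF5 (SD, n = 3), a log2 fold change of 1.47 ± 0.074 (SE), with an adjusted p of 2.19e-10. CDKN2B rose by a log2 fold change of 1.61 ± 0.12 (SE), with an adjusted p of 4.29e-08, and CDKN1B by a log2 fold change of 0.63 ± 0.12 (SE), with an adjusted p of 0.000752. In HCC95, CDKN1A measured 72.4 ± 12.6 CPM with the empty vector, 57.4 ± 0.812 CPM with KLF5 WT and 42.4 ± 5.78 CPM with KLF5 E419Q (SD, n = 2). It fell with KLF5 WT close to the threshold (log2 fold change -0.33 ± 0.12 SE, adjusted p = 0.0471). The fall with KLF5 E419Q was larger (-0.79 ± 0.13 SE, adjusted p = 9.57e-05). Between the forms, it was lower with KLF5 E419Q (-0.46 ± 0.13 SE, adjusted p = 0.0368). CDKN1B, which rose with siKLF5, also rose with KLF5 WT (log2 fold change 0.34 ± 0.10 SE, adjusted p = 0.0191), and was lower with KLF5 E419Q than with KLF5 WT (log2 fold change -0.40 ± 0.11 SE, adjusted p = 0.0202). With KLF5 WT these were the 2 calls among 4 inhibitors tested, and with KLF5 E419Q CDKN1A was the only call of 4. The part of CDKN1A in the change of the mitotic genes was not tested.

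**Figure D5:**
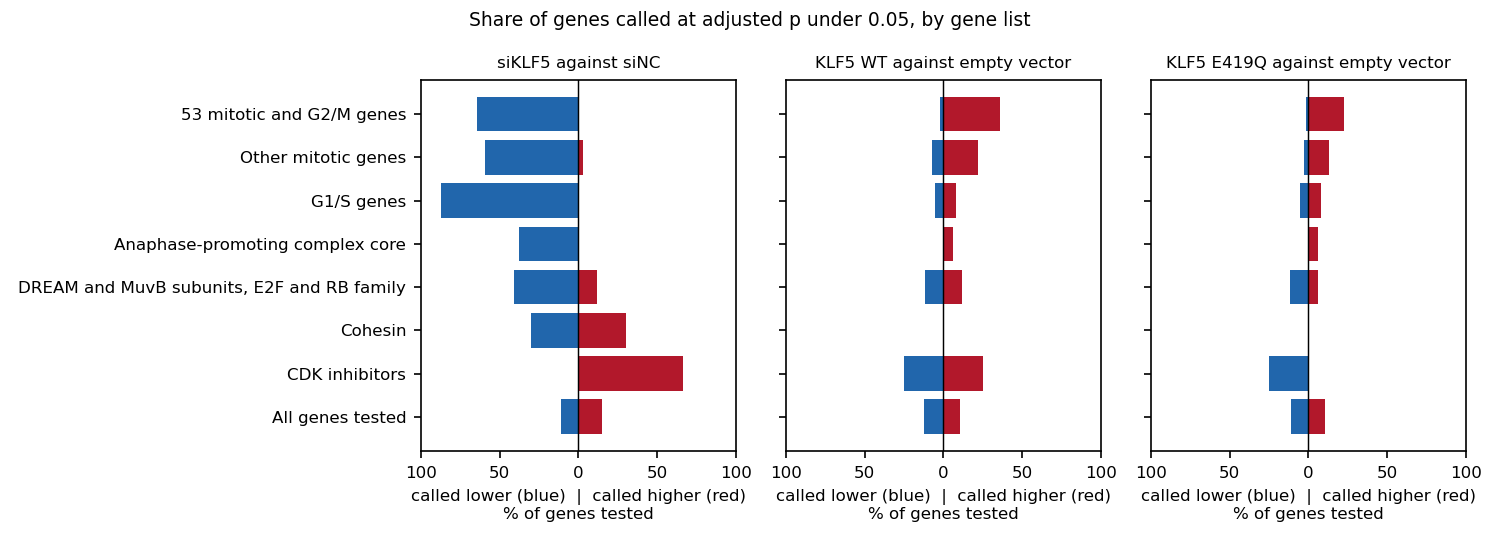
Percentage of the genes tested in each list that were lower (blue, left of 0) or higher (red, right of 0) at an adjusted p under 0.05, in the 3 comparisons; the bottom bar gives all genes tested. With siKLF5 the blue bars of the mitotic and G1/S lists reach 59.4% to 87.2%, against 10.8% for all genes. With the KLF5 forms more genes of the mitotic lists rose than fell. With KLF5 E419Q the other mitotic genes rose at 13.0%, near the 10.4% of all genes. The G1/S list, at 7.69% higher and 5.13% lower, stayed under the shares of all genes in both directions.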

How the data were processed

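Per the labels' protocols, RNA was extracted with Qiagen RNeasy, and NEB kits were used for poly(A) selection and libraries. The submitters' processing notes name STAR, RSEM and hg19, and edgeR and limma for HCC95. For BICR31 the authors deposited 1 normalised signal per gene; no source used here gives its scaling. Its upper quartile above 0 was 983 to 992 units in every library. Between 81.7% and 82.7% of its values were whole multiples of a library step (within 0.02), from which estimated counts were taken for an alternative. For HCC95 the authors deposited RSEM expected counts and TPM. TPM served only to compare levels between genes.

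BICR31 was tested with limma 3.58.1 (trend) on log2(signal + 1), over the 15710 genes that averaged 10 units or more, so low genes' fold changes are understated. HCC95 was tested with edgeR 4.0.16 (quasi-likelihood, TMM, filterByExpr) on expected counts rounded to whole numbers, over 12933 genes and all 6 libraries in 1 fit. The threshold was an adjusted p of 0.05. CPM are expected counts relative to the library total. The 3 or 2 libraries of a group differed beyond counting noise, so none was merged.

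The genes, their roles, the other lists and the tests were chosen with earlier results of these data known. Every gene is named with its role. Library values are given for up to 3 genes per role and comparison, those with the smallest adjusted p among genes called without overlap, and always for CCNB1, CDK1, PLK1, AURKA, TOP2A, MKI67, FOXM1 and MYBL2. Of the other lists up to 3 genes are named by the smallest adjusted p. Library values of other genes, such as BUB3 and NUSAP1 in BICR31 and CDC20 in HCC95, were added after they were seen. RefSeq promoters (GRCh38.p14) were matched by symbol for 45 of the 53 genes. Alternatives covered scaling, pseudocount, the filter, the replicate block, DESeq2 1.42.0 and each library left out. R 4.3.3 and Python 3.11.15 were used.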

Additional observations from a re-analysis of the deposited data

How the results depend on the processing

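Each alternative changed 1 choice, except that DESeq2 and edgeR on estimated counts change scaling and test together. With siKLF5, 0 genes were higher under every alternative, and leaving out each library in turn gave 26 to 30 lower against 34, with the lowest count without siKLF5 C. Over all genes, leaving out each library gave 1313 to 1412 lower against 1693. The calls of 22 genes were kept in every alternative. With KLF5 WT, DESeq2 called 7 higher against 19, and leaving out each library gave 11 to 17 higher and 0 to 1 lower. With KLF5 E419Q, DESeq2 called 4 higher and library totals 18 against 12. Over all genes DESeq2 called 573 higher against 1340. Here too both counts were lower when any library of the 2 groups was left out. For KLF5 E419Q against KLF5 WT, the 2 lower calls became 0 with library totals, 0 with DESeq2, 1 with the replicate block and 0 to 0 when any library was left out. With 1 library left in a group, that library was assumed to vary like the other groups. Deviations of same-lettered libraries correlated at r between -0.041 and 0.026, and those of differently lettered libraries between -0.030 and 0.041. With 2 libraries a group in HCC95, the deviations mirror each other and the 2 kinds of pair differ only in sign. These values therefore cannot settle there whether the letters mark paired libraries. With the replicate letter as a block, 34 genes were lower with siKLF5, 19 were higher with KLF5 WT and 11 with KLF5 E419Q. No named gene's call turned to the opposite direction. Over all genes, library totals turned 1394 higher and 1568 lower into 1482 and 1470 with KLF5 WT, and 1340 and 1397 into 1551 and 1242 with KLF5 E419Q. The causes of these shifts were not tested. In HCC95, 2 libraries a group limit what could be called, and totals of 1922360 to 2296190 estimated counts limit BICR31.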

Other observations

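Across the 53 genes, the log2 fold changes with siKLF5 and with KLF5 WT had a Pearson r of 0.242 and a Spearman rho of 0.225. For siKLF5 and KLF5 E419Q the values were 0.256 and 0.263. Over all 12432 genes tested in both lines the values were -0.0408 and 0.0253 for KLF5 WT, and 0.0267 and 0.0846 for KLF5 E419Q. The points are genes of the same libraries, not replicates, and share depth and base composition within a line.

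The 3 deepest falls with siKLF5, in PTTG1, SPC25 and CKS1B, were in genes that were not called with either KLF5 form. PTTG1 had a log2 fold change of 0.20 ± 0.12 (SE; adjusted p = 0.242) with KLF5 WT, SPC25 of 0.19 ± 0.16 (SE; adjusted p = 0.453) and CKS1B of -0.11 ± 0.093 (SE; adjusted p = 0.414). NUSAP1 showed the converse, with 0.02 in BICR31 and rises in HCC95 that were kept under every alternative tried. The difference between the lines was not tested, since their tables were normalised separately.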
